A study of Mus musculus with 10 samples.

Results

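The genes described here encode 9 antimicrobial proteins of skin and of the leukocytes that enter it. They are the beta-defensins Defb1, Defb3, Defb4, Defb6 and Defb14, the cathelicidin Camp, lipocalin 2 (Lcn2), the protease inhibitor Slpi and the peptidoglycan recognition protein Pglyrp1. They were chosen by symbol, and all 9 were present among the 19175 genes of the deposited expression table. Poly(A) RNA of skin was sequenced in 10 samples of C57BL/6 mice in the MC903 model, in which the vitamin D analogue calcipotriol (MC903) causes a type 2 dermatitis. In 5 samples, here called CKO, the genotype label gives a conditional knockout of VAMP7, a SNARE protein of secretory vesicles, in basophils. The other 5, here called Flox, carry the floxed label and are called WT in the treatment field. MC903 stands in the title of every sample, so its own effect cannot be read from these data. Nothing in the labels names the Cre line, the age, the sex, the time of sampling or whether a sample is 1 animal, so p-values measure only how these samples scatter, which may be technical.

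Values are FPKM, a level per transcript length and library size, whose sum per library was 525369 to 581022. Differences are log2 fold changes of FPKM + 1, CKO against Flox, from 1 limma fit over 13186 genes, those that reached 1 FPKM in 5 or more libraries. Errors of FPKM means are SD with n = 5 per group. The targeted gene Vamp7 ranged from 17.3 to 19.2 FPKM in CKO and from 18.1 to 22.5 FPKM in Flox, and the groups overlapped. Other cells of whole skin also express Vamp7, so it does not check the labels. All 18 keratinocyte markers were tested and their summed level was 11482 to 16129 FPKM over the 10 libraries. The 13 basophil markers were all lower on average in CKO, with a median log2 fold change of -1.05. Of these, 3 passed (limma adjusted p under 0.05), against 0.0607% of all genes tested in that direction. The 22 skeletal muscle markers summed to 1936 FPKM in CKO replicate 1, to 502 to 1251 FPKM in the other CKO libraries and to 339 to 587 FPKM in Flox, so CKO replicate 1 stood apart. All 18 tested muscle markers were higher on average in CKO (median log2 fold change 0.85), against 39.5% of all genes tested. Of the 18, 0 passed, and 15 had an unadjusted p under 0.05 (limma), against 4.78% of all genes in that direction.

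Beta-defensins are small cationic peptides held together by cysteine bridges that damage microbial membranes and attract leukocytes. In skin they are made by keratinocytes, some steadily and others after signals such as IL-17, IL-22, IL-1 and microbial products. Cathelicidin, SLPI, lipocalin 2 and PGLYRP1 are also stored in neutrophil granules, and granule proteins are largely made while neutrophils mature in bone marrow. In human keratinocytes the type 2 cytokines IL-4 and IL-13 lower the induction of defensins.

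Of the 5 beta-defensin genes, all lie on chromosome 8, by the RefSeq annotation of GRCm38.p6. Defb14, Defb4 and Defb6 are direct neighbours in that order, Defb46 and Defb5 lie between Defb6 and Defb3, and Defb1 is separated from Defb3 by 41 coding genes. The promoters of Defb3 and Defb6 are shown because these paralogs share most of this sequence, and their levels across libraries are compared below. The aligned stretches are given 5′ to 3′ on the plus strand, from RefSeq on GRCm38.p6, and capitals mark bases that differ or have no partner in the other gene. The Defb6 stretch ends at the gene start, and that of Defb3 ends 15 bases before it.
Defb3 promoter, chr8:19293111-19293345: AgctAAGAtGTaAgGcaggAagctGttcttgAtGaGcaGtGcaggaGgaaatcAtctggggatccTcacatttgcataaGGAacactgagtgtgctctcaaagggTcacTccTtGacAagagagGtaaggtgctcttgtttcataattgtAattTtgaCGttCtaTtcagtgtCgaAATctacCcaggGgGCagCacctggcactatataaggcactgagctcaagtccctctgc
Defb6 promoter, chr8:19225240-19225477: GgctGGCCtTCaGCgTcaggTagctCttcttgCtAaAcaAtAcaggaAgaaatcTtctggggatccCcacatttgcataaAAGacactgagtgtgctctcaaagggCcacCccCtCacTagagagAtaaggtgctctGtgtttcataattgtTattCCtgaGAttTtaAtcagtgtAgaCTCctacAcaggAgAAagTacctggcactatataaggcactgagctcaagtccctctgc
Over the full 250 bases of each, with unmatched ends counted, 192 of 265 positions (72.5%) were identical. Of the 238 aligned positions of the stretches shown, 192 (80.7%) were identical, and the longest identical run was 40 bases. That run holds the motif TATATAA, which 3.26% of 27025 promoter windows of 250 bases hold on either strand. Both also hold the octamer ATTTGCAT, found in 1.61% of windows. It overlaps a match to TTGCNNAA, a C/EBP-like pattern found in 9.55% of windows on either strand. The STAT-like pattern TTCNNNGAA was in neither, and in 7.18% of all windows.
The Lcn2 promoter is shown for comparison, since Lcn2 is the other member with a large difference below. It is read on the minus strand with its TTGCNNAA match in capitals.
Lcn2 promoter, chr2:32387740-32387989: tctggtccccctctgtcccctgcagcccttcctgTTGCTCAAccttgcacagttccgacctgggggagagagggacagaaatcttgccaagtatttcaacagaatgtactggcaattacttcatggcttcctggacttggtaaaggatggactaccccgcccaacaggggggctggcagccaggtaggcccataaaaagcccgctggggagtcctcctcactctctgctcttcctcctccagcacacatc
It holds none of TATATAA, ATTTGCAT and TTCNNNGAA. These matches describe the sequence and show no binding. In the table of promoter sequences 6 of the 9 members were matched.

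None of the members passed the test over all genes (0 of 8 tested, limma adjusted p under 0.05). Among all genes tested 0.106% passed in either direction, 0.0455% (6 genes) higher and 0.0607% (8 genes) lower in CKO. At an unadjusted p under 0.05 there were 2 members, Defb3 and Lcn2, both higher in CKO, against 4.78% of all genes in that direction, 10.3% in the other and 15.1% in either. The groups overlapped for all 9 members, while 4.23% of all tested genes did not overlap, 1.24% higher and 3% lower in CKO. The ninth member, Camp, was too low to be tested with the others. The log2 fold change was positive for 3 and negative for 5 of the 8 tested members. Its median was -0.039, and -0.027 over all genes tested. Fewer cells of a type and less RNA per cell cannot be told apart in such bulk samples.

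**Figure D1:**
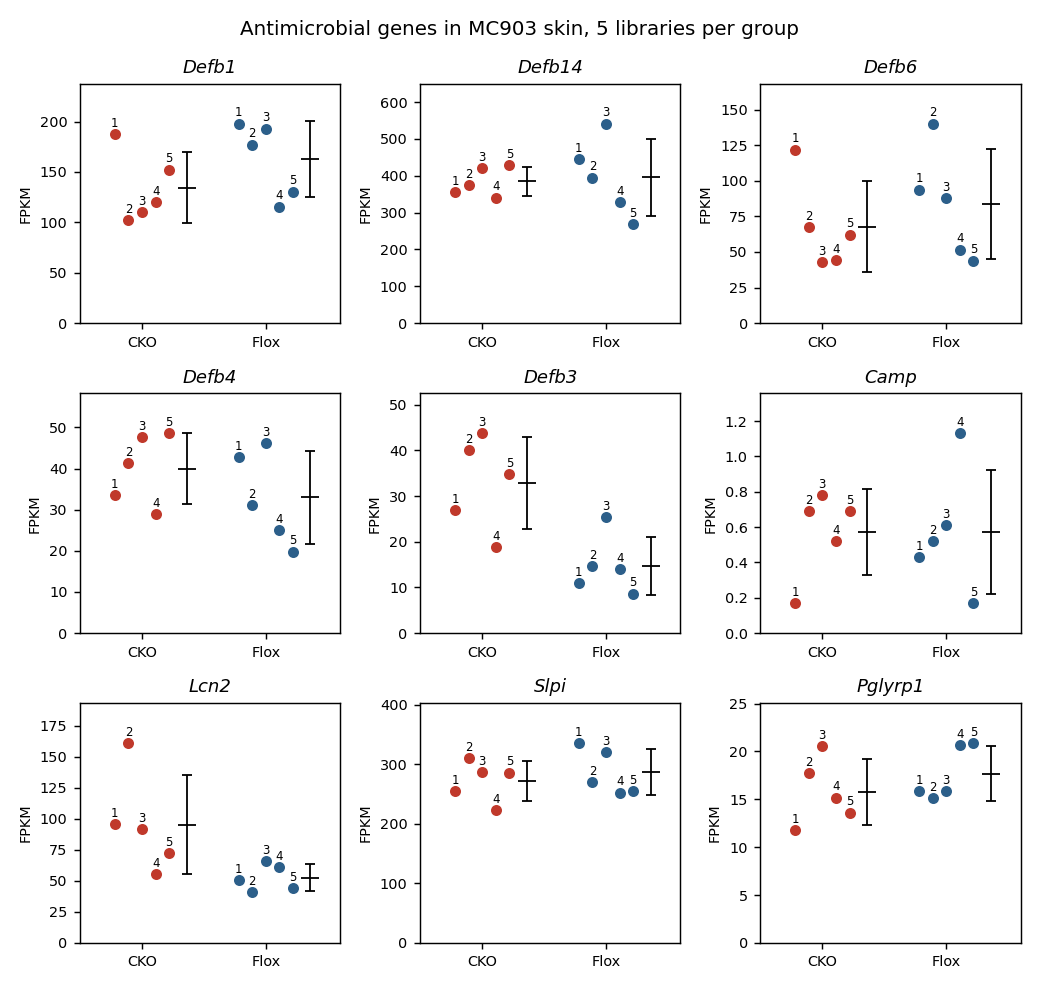
Level of each member in FPKM (vertical axes from 0, different for each gene) in 5 CKO and 5 Flox libraries. Points are libraries with their replicate number, and bars beside them are mean ± SD. For Defb3 and Lcn2, 4 of 5 CKO libraries lie above all Flox libraries; the other members overlap more.

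On the FPKM scale the members covered a wide range. Defb14 had the highest mean over the 10 libraries, 390.2 FPKM, rank 213 of all genes in the table. Slpi followed at 279.7 FPKM, Defb1 at 149 FPKM, Defb6 at 75.7 FPKM and Lcn2 at 73.9 FPKM. Defb4 was at 36.5 FPKM, Defb3 at 23.8 FPKM, Pglyrp1 at 16.7 FPKM and Camp at 0.571 FPKM. The libraries of neighbours in this order overlapped for Defb14 and Slpi, for Defb1 and Defb6, for Defb6 and Lcn2, for Lcn2 and Defb4, for Defb4 and Defb3, and for Defb3 and Pglyrp1. Slpi and Defb1 did not overlap, nor did Pglyrp1 and Camp. The other 12 beta-defensin genes of the table were near the floor: 9 were above 0 in 1 library, and the highest value of any was 3.30 FPKM (Defb8 in CKO replicate 1, named after its values were seen).

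Defb3 (Entrez 27358), an inducible defensin often set beside human beta-defensin 2, showed the largest difference of the family. Its level was 27.0, 40.1, 43.7, 18.8 and 34.8 FPKM in CKO replicates 1 to 5 and 10.9, 14.7, 25.3, 14.0 and 8.65 FPKM in Flox replicates 1 to 5. Of the CKO libraries 4 lay above every Flox library, and CKO replicate 4 lay below Flox replicate 3 alone. The mean was 32.9 ± 10.1 FPKM in CKO and 14.7 ± 6.41 FPKM in Flox (SD, n = 5 each), a 2.23-fold higher mean. On the log2 scale the difference was 1.14 (SE 0.28, 95% interval 0.51 to 1.76, limma adjusted p = 0.135), so Defb3 did not pass. Its size was above that of 99.8% of the genes tested. By the exact two-sided permutation test on this gene alone p was 0.0159, where 0.00794 is the smallest the design allows. Without any 1 library the log2 fold change stayed between 0.98 and 1.34, with 1.19 without CKO replicate 1, the library richest in muscle markers. Neutrophil markers, given with Lcn2 below, were also mostly higher on average in CKO. Within groups Defb3 had an r of 0.58 with them over 10 libraries (exact permutation p = 0.0912, 0.259 adjusted over 40 relations; rho 0.61, permutation p = 0.0856, 0.298 adjusted), and 0.37 without CKO replicates 2 and 3. Their part in the Defb3 difference between groups was not tested.

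Defb4 (Entrez 56519), also inducible, was at 33.6, 41.3, 47.7, 28.9 and 48.6 FPKM in CKO and at 42.8, 31.1, 46.25, 25.1 and 19.8 FPKM in Flox replicates 1 to 5. The groups overlapped over most of their range. The estimated difference was 0.31 on the log2 scale (SE 0.23, 95% interval -0.20 to 0.82, limma adjusted p = 0.571). It was 0.15 without Flox replicate 5, 0.45 without Flox replicate 3, 0.13 with array quality weights and 0.73 after adjustment for mean muscle marker level. Of the 50-base windows of the Defb4 transcripts (the read length in the labels), 5.68% occurred exactly in Defb8 transcripts too, by GENCODE, so those reads cannot be told apart. No window of Defb1, Defb3, Defb6 or Defb14 occurred in another gene.

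Defb14 (Entrez 244332), the mouse counterpart of human beta-defensin 3 and a ligand of the chemokine receptor CCR6, was the most abundant member. It was at 357, 376, 420.1, 341 and 429.5 FPKM in CKO and at 445, 395, 542, 329 and 269 FPKM in Flox replicates 1 to 5. The Flox libraries lay on both sides of the CKO libraries, and the Flox spread was wider (coefficient of variation 26.6%, against 10.1% in CKO). The difference between means was -0.0062 on the log2 scale (SE 0.17, 95% interval -0.37 to 0.36, limma adjusted p = 0.992), and its sign changed when single libraries were left out.

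Defb1 (Entrez 13214), the constitutive epithelial defensin, was at 187, 102, 110.0, 120.15 and 152 FPKM in CKO and at 198, 177, 193, 116 and 130.5 FPKM in Flox replicates 1 to 5. Of the CKO libraries 4 lay below the Flox median of 177 FPKM, with CKO replicate 1 above it. Its log2 fold change was -0.28 (SE 0.20, 95% interval -0.72 to 0.16, limma adjusted p = 0.545). It was -0.19 without CKO replicate 2, -0.41 without CKO replicate 1 and -0.47 with array quality weights.

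Defb6 (Entrez 116746), a defensin reported in mouse skeletal muscle and epithelia, had the widest relative spread of the defensins in both groups (coefficients of variation 47.3% and 46.1%). It was at 122, 67.7, 43.1, 44.4 and 62.1 FPKM in CKO and at 93.8, 140.2, 87.95, 51.6 and 44.0 FPKM in Flox replicates 1 to 5. The groups overlapped almost entirely, and the log2 difference was -0.28 (SE 0.35, 95% interval -1.06 to 0.50, limma adjusted p = 0.767). It was -0.065 without Flox replicate 2, -0.52 without CKO replicate 1, -0.62 with array quality weights and -0.48 after adjustment for mean muscle marker level. Muscle markers summed to 1936 FPKM in CKO replicate 1, the second highest for Defb6, and to 520 FPKM in Flox replicate 2, the highest for Defb6. Within groups Defb6 and the muscle markers had a Pearson r of 0.21 over 10 libraries (exact permutation p = 0.585, 0.731 adjusted over 40 relations) and a Spearman rho of 0.054 (permutation p = 0.905, 0.953 adjusted). Without CKO replicates 1 and 4, the farthest from the median muscle level, r was -0.48.

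**Figure D2:**
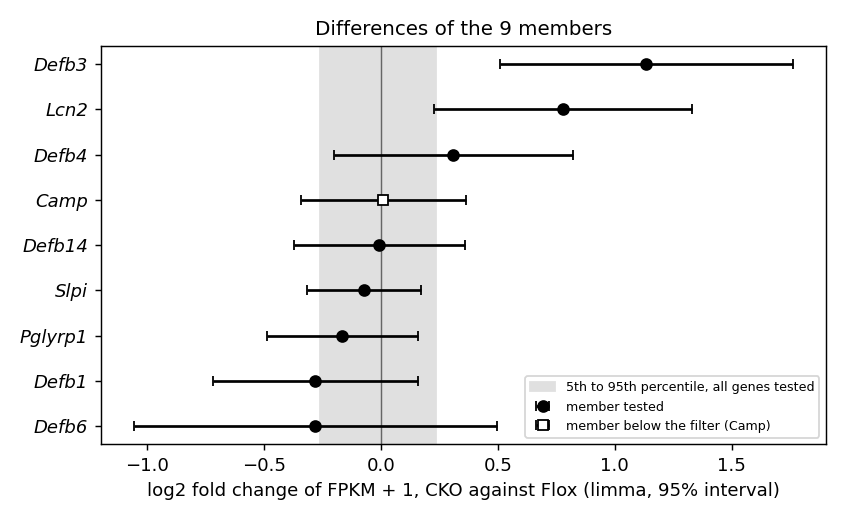
Log2 fold change of FPKM + 1, CKO against Flox (horizontal axis), of the 9 members, with 95% intervals from limma; the open square is Camp, from the fit with no filter on low values. The grey band spans the 5th to 95th percentile of all genes tested, and Defb3 and Lcn2 are the members whose intervals lie above 0.

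The summed level of the 5 defensins was 659.7 ± 73.3 FPKM in CKO and 689.9 ± 179 FPKM in Flox (exact two-sided permutation p = 0.857, n = 5 each). Defb14 held 49.1% to 63.2% of the sum in CKO and 52.1% to 61.4% in Flox. Defb3 held 3.39% to 6.58% in CKO and 1.38% to 2.83% in Flox. Defb14 was the largest part of the sum, so this share is not independent of the ratio that follows. Set against Defb14 in the same library, Defb3 was at 7.56, 10.7, 10.4, 5.51 and 8.11 FPKM per 100 FPKM of Defb14 in CKO and at 2.45, 3.72, 4.67, 4.27 and 3.22 in Flox replicates 1 to 5. The lowest CKO library lay above the highest Flox library. The log2 ratio was 1.14 higher in CKO (exact two-sided permutation p = 0.00794, the smallest the design allows, n = 5 each), and 1.01 to 1.28 higher without any 1 library. This ratio was chosen after the values were seen, as 1 of 28 ratios between tested members. Of these 28, 5 did not overlap between groups, 4 of which involve Defb3 (to Defb1, Defb4, Defb14 and Slpi). The fifth was the ratio of Lcn2 to Slpi, 0.85 higher in CKO. The 4 ratios with Defb3 are not separate observations, since Defb3 is in each and Defb4, Defb14 and Slpi varied together within groups (below). Taken against Defb14 in the same way, 12 of 13185 tested genes (0.091%) were higher in CKO without overlap, and Defb3 was among them. In either direction there were 26 (0.197%). No such share was computed for the other ratios.

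**Figure D3:**
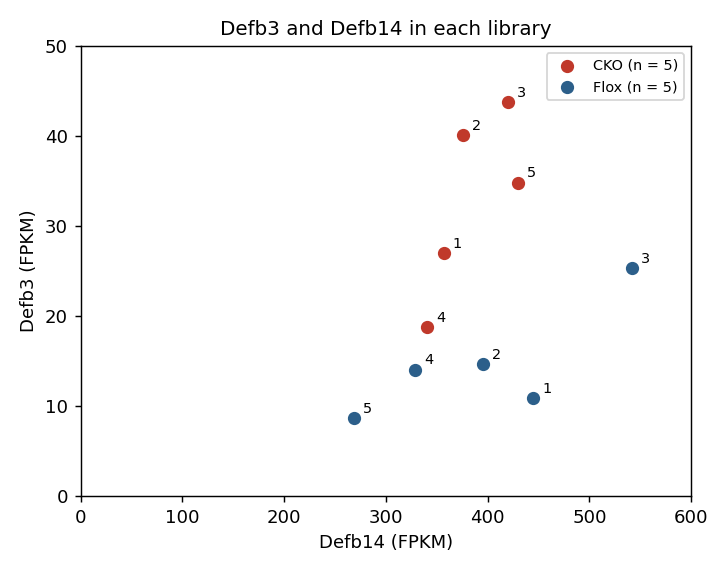
Defb3 (vertical axis, FPKM) against Defb14 (horizontal axis, FPKM) in each of the 10 libraries, numbered by replicate. Every CKO library lies at a higher Defb3 for its Defb14 than any Flox library (5.51 to 10.7 against 2.45 to 4.67 per 100).

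Lcn2 (Entrez 16819), which starves bacteria of iron by binding their siderophores, was at 95.8, 160.9, 91.95, 55.1 and 72.6 FPKM in CKO and at 50.8, 40.6, 66.1, 60.85 and 44.2 FPKM in Flox replicates 1 to 5. Of the CKO libraries 4 were above every Flox library, and CKO replicate 2 was the highest. The mean was 95.3 ± 40.1 FPKM in CKO and 52.5 ± 10.8 FPKM in Flox, a 1.81-fold higher mean. The fitted difference was 0.78 on the log2 scale (SE 0.25, 95% interval 0.23 to 1.33, limma adjusted p = 0.209), so Lcn2 did not pass. The exact two-sided permutation p of the gene alone was 0.0317 (n = 5 each). Without CKO replicate 2 the log2 fold change was 0.57, and without any other 1 library it was 0.69 to 0.95.

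Neutrophil markers were mostly higher on average in the same group. Of 15 tested neutrophil markers 13 had a positive log2 fold change, against 39.5% of all genes tested, and the median was 0.49. Of the 15, 0 passed. At an unadjusted p under 0.05 (limma) 5 were higher and 1 lower (Padi4), against 4.78% and 10.3% of all genes. The receptors Cxcr2 and Csf3r differed little, with log2 fold changes of -0.080 (SE 0.25) and 0.087 (SE 0.29). Summed over the 20 markers, they were at 3734 to 8854 FPKM in CKO and 2978 to 5018 FPKM in Flox, highest in CKO replicates 2 and 3. The calprotectin subunits S100a8 and S100a9 made up most of this sum, at 2970 ± 1130 and 2246 ± 1020 FPKM in CKO and 2038 ± 445 and 1417 ± 329 FPKM in Flox, and inflamed keratinocytes also express them. The granule genes Mpo, Elane, Ltf and Ngp were at or near 0, with at most 1.77 FPKM (Ngp) in any library. After the group means were removed, Lcn2 and the mean log2 marker level had a Pearson r of 0.71 over 10 libraries (exact permutation p = 0.0558, 0.248 adjusted over 40 relations) and a Spearman rho of 0.62 (permutation p = 0.0893, 0.298 adjusted). Without CKO replicates 2 and 3, the libraries farthest from the median marker level, r was 0.32, and without CKO replicate 1, the library richest in muscle markers, it was 0.89. The part of neutrophils in the Lcn2 difference was not tested.

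Camp (Entrez 12796), which encodes the precursor of the peptide CRAMP, was close to the limit of the table. It was at 0.17, 0.69, 0.78, 0.52 and 0.69 FPKM in CKO and at 0.43, 0.52, 0.61, 1.13 and 0.17 FPKM in Flox replicates 1 to 5. All 10 values were whole multiples of 0.0869 FPKM within 0.006, from 2 to 13 steps. If 1 step is 1 read, a library held at most 13 reads of Camp. The means were 0.570 ± 0.243 and 0.572 ± 0.353 FPKM (SD, n = 5 each), and no difference was detectable at this level (log2 fold change 0.010 (SE 0.16), limma adjusted p = 0.994 in a fit with no filter).

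Slpi (Entrez 20568), an inhibitor of neutrophil elastase and cathepsin G, was the second most abundant member. It was at 255, 310.1, 288, 224 and 286 FPKM in CKO and at 336, 271, 320.5, 253 and 255 FPKM in Flox replicates 1 to 5. The groups overlapped, and the coefficients of variation, 12.3% and 13.5%, were low in both groups. The log2 difference was -0.072 (SE 0.11, 95% interval -0.31 to 0.17, limma adjusted p = 0.812). Without 1 library it was -0.12 to -0.0036, with array quality weights -0.15, and after adjustment for muscle 0.14, of the other sign. Within groups Slpi ran against the skeletal muscle markers, with a Pearson r of -0.76 (exact permutation p = 0.00576, 0.115 adjusted over 40 relations) and a Spearman rho of -0.79 (permutation p = 0.00104, 0.0417 adjusted) over 10 libraries. Without CKO replicates 1 and 4, the farthest from the median muscle level, r was -0.99. The relation was not particular to Slpi. With the same markers r was -0.68 for Defb4 (exact permutation p = 0.0125, 0.125 adjusted) and -0.53 for Defb14 (exact permutation p = 0.0213, 0.165 adjusted). It was -0.57 for Defb3 (exact permutation p = 0.0876, 0.259 adjusted), -0.38 for Lcn2 and for Pglyrp1, 0.24 for Defb1 and 0.21 for Defb6.

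Pglyrp1 (Entrez 21946), which binds bacterial peptidoglycan, was at 11.8, 17.8, 20.55, 15.2 and 13.6 FPKM in CKO and at 15.8, 15.1, 15.9, 20.7 and 20.9 FPKM in Flox replicates 1 to 5. The 3 highest values came from both groups. Its log2 difference was -0.17 (SE 0.15, 95% interval -0.49 to 0.16, limma adjusted p = 0.641). It was -0.074 without CKO replicate 1, -0.26 without CKO replicate 3, -0.049 with array quality weights and -0.021 after adjustment for muscle. Within groups it ran against the keratinocyte markers, with a Pearson r of -0.88 (exact permutation p = 0.00285, 0.114 adjusted over 40 relations), a Spearman rho of -0.88 (permutation p = 0.00326, 0.0653 adjusted) and -0.88 without CKO replicate 2 and Flox replicate 4, the farthest from the median. With the neutrophil markers it had an r of 0.76 (exact permutation p = 0.029, 0.165 adjusted) and a rho of 0.685 (permutation p = 0.0542, 0.219 adjusted), and r was 0.57 without CKO replicates 2 and 3.

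**Figure D4:**
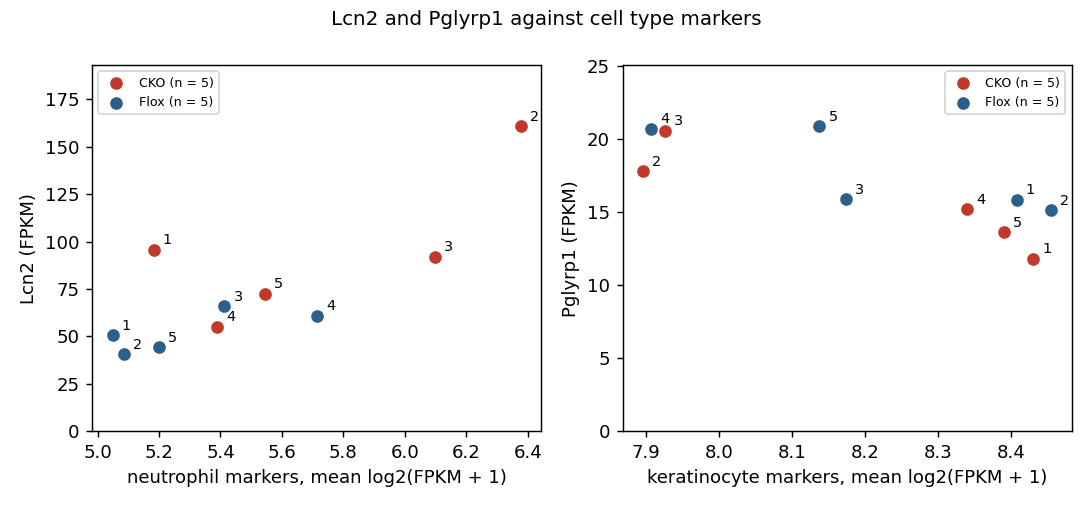
Left, Lcn2 (FPKM) against the mean log2(FPKM + 1) of 15 neutrophil markers; right, Pglyrp1 (FPKM) against that of 18 keratinocyte markers; points are libraries, numbered by replicate. CKO replicate 2 is highest for Lcn2 (160.9 FPKM), and Pglyrp1 is lowest in CKO replicate 1 (11.8 FPKM), which has the highest keratinocyte markers of its group.

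Within groups, some members varied together and others did not. Correlations of log2 deviations from the group means were taken for 28 pairs of the 8 tested members over 10 libraries. The neighbouring genes Defb4 and Defb14 were most alike, with a Pearson r of 0.96 (exact permutation p = 2.08e-04, 0.00583 adjusted over the 28 pairs), a Spearman rho of 0.98 (permutation p = 3.47e-04, 0.00972 adjusted) and an r of 0.90 without Flox replicates 4 and 5. Slpi followed Defb4, with an r of 0.88 (exact permutation p = 0.00292, 0.0272 adjusted), a rho of 0.855 (permutation p = 0.00743, 0.0694 adjusted) and an r of 0.87 without the same libraries. Defb3 had an r of 0.73 with Defb14 (exact permutation p = 0.0244, 0.0914 adjusted; rho 0.61, permutation p = 0.0692, 0.242 adjusted) and of 0.60 without CKO replicate 3 and Flox replicate 5. With its promoter paralog Defb6 it had an r of 0.21 (exact permutation p = 0.578, 0.718 adjusted; rho 0.14, permutation p = 0.729, 0.850 adjusted) and of 0.15 without the same libraries. Defb1 and Pglyrp1 ran in opposite directions, with an r of -0.91 (exact permutation p = 0.00215, 0.0272 adjusted), a rho of -0.78 (permutation p = 0.0176, 0.0984 adjusted) and an r of -0.915 without CKO replicate 2 and Flox replicate 1. Opposite in sign to Pglyrp1, Defb1 had an r of 0.82 with the keratinocyte markers (exact permutation p = 0.0118, 0.125 adjusted over 40 relations). With the neutrophil markers its r was -0.74 (exact permutation p = 0.0278, 0.165 adjusted). The part of the cell mix in this opposition was not tested.

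**Figure D5:**
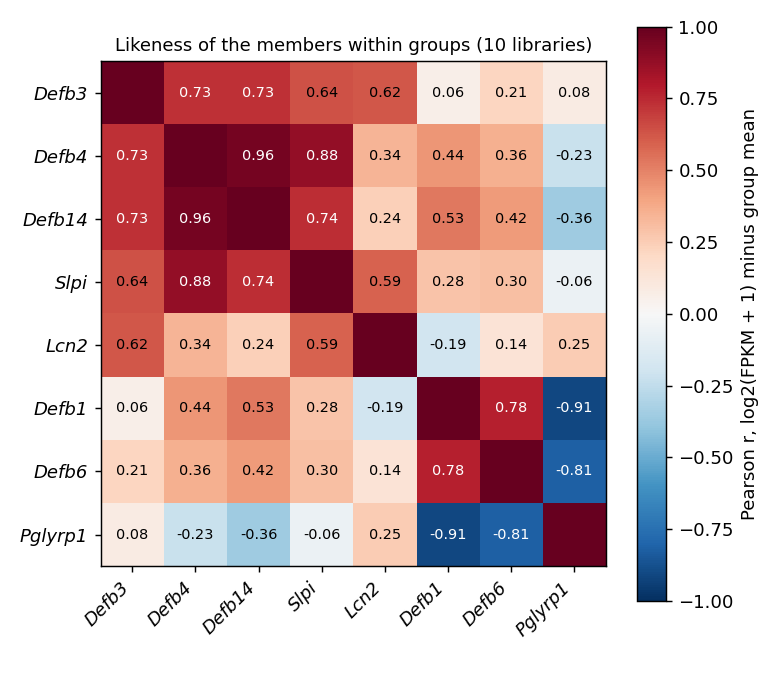
Pearson r (colour and number) between each pair of the 8 tested members, from log2(FPKM + 1) minus the group mean in 10 libraries. Defb3, Defb4, Defb14 and Slpi form a block with values of 0.64 to 0.96, and Pglyrp1 runs against Defb1 (-0.91) and Defb6 (-0.815).

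The genes most like each member, by the highest r among tested genes with a gene name, are named as a description over the same 10 libraries. Symbols of the Gm and Rik kinds were left out, and such r are high by selection from many genes. For Defb3 the genes most alike were Gtpbp2 (r = 0.94), Fcor (0.92) and the plasma haemoglobin scavenger Hp (0.88). For Lcn2 they were Arhgap22, Micall2 and the chitinase-like protein Chil1, with r of 0.95 to 0.96. For Defb14 they were Defb4, then the cystatin genes Csta1 (0.93) and Cstdc6 (0.89), and for Defb4, beside Defb14, the epithelial protease Prss27 (0.92) and Cyb5r3 (0.90). For Slpi they were Snupn, the cornified envelope gene Lce3e and the haem synthesis enzyme Alas1, with r of 0.95. Those of Pglyrp1 were the leukocyte integrin chain Itgb2 (0.98), Usp42 (0.98) and Cwc25 (0.96). Those of Defb1 were Clic3 (0.99), Bicdl2 (0.98) and Dusp14 (0.98), and those of Defb6 were Crot, Ilf2 and Hacd2, all at 0.96.

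The list for the pathways that induce these peptides mixes inducers with feedback inhibitors, so its counts do not measure pathway activity. Of 38 tested genes of this list 28 had a positive log2 fold change, against 39.5% of all genes tested, and 0 passed. At an unadjusted p under 0.05 (limma) 10 were higher and 3 lower, against 4.78% and 10.3% of all genes. The inhibitor Socs3 was among the higher and the cytokine Il6 among the lower. The median was 0.12. The genes of lowest p were Il6, at 12.5 ± 2.61 FPKM in CKO and 20.2 ± 1.91 in the other group, the EGFR ligand Areg, the transcription factor Cebpb and the cytokine feedback inhibitor Socs3. The last was at 69.8 ± 9.67 FPKM in CKO and 49.2 ± 9.36 FPKM in Flox. Cebpb, a factor of acute-phase and antimicrobial genes, averaged 86.3 ± 8.0 FPKM against 67.9 ± 7.55 FPKM (log2 difference 0.34, SE 0.085, limma adjusted p = 0.135). Among inducers named after their values were seen, Il17a, Il17c, Il17f and Il22 were near the floor of the table, and Il1a and Il1b were not. Il1b averaged 279.8 ± 184 FPKM in CKO libraries and 203 ± 74.5 FPKM in Flox libraries (limma adjusted p = 0.853), and Il1a 24.7 ± 9.68 and 20.0 ± 4.43 FPKM (limma adjusted p = 0.677). Il17a ranged from 0.080 to 0.34 FPKM in CKO libraries and from 0.040 to 0.090 FPKM in Flox libraries, and Il22 was at most 0.050 FPKM in any library.

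Among 10 genes of the type 2 response 8 were lower and 2 higher on average in CKO, while 39.5% of all genes tested were higher. The median was -0.29 and 0 passed. At an unadjusted p under 0.05 (limma) there were 3, all lower, against 10.3% of all genes in that direction. These 3 were the eotaxin Ccl24, at 23.0 ± 6.08 FPKM in CKO and 59.3 ± 19.0 FPKM in Flox, and the cytokines Il4 and Il13. Il4 ranged from 1.59 to 5.48 FPKM in CKO and from 7.30 to 12.8 FPKM in Flox, without overlap (limma adjusted p = 0.0845). Over all genes 3% were lower in CKO without overlap. The fourth gene, the decoy receptor Il13ra2, was at 18.7 ± 6.95 and 23.0 ± 4.30 FPKM. The part of these genes in the levels of the members was not tested.

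For 31 other antimicrobial genes tested, the log2 fold change was positive for 15 and negative for 16. It was positive for 39.5% of all genes tested. The median of the 31 was -0.0026, and 0 passed. At an unadjusted p under 0.05 (limma) 4 were higher and 3 lower, against 4.78% and 10.3% of all genes. Pglyrp2, an amidase that cleaves peptidoglycan, averaged 1.15 ± 0.405 FPKM in CKO libraries and 2.09 ± 0.267 FPKM in Flox libraries (log2 difference -0.54, SE 0.12, limma adjusted p = 0.117). Its groups did not overlap, at 0.76 to 1.66 and 1.76 to 2.40 FPKM; over all genes 3% were lower in CKO without overlap. Wfdc2, which holds the same kind of domain as Slpi, was at 6.81 ± 0.586 and 4.88 ± 0.886 FPKM (log2 difference 0.42, SE 0.098, limma adjusted p = 0.125). The acute-phase gene Saa1 was at 14.8 ± 5.48 and 8.91 ± 1.07 FPKM, and the protease Ctsg, which Slpi inhibits, at 1.37 ± 0.716 and 2.78 ± 0.944 FPKM.

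Among 20 tested receptors, partners and processing enzymes of the peptides, 11 were higher and 9 lower on average in CKO. Over all genes tested 39.5% were higher. The median log2 fold change of the 20 was 0.015, and 0 passed. At an unadjusted p under 0.05 (limma) 3 were higher and 3 lower, against 4.78% and 10.3% of all genes. The scramblase Plscr1, a reported partner of SLPI, ranged from 17.2 to 22.2 FPKM in CKO libraries and from 10.6 to 17.0 FPKM in Flox libraries, without overlap (log2 difference 0.51, SE 0.11, limma adjusted p = 0.102). Over all genes 1.24% were higher in CKO without overlap. The formyl peptide receptor Fpr1 was at 9.27 ± 3.13 and 4.45 ± 1.47 FPKM, and the kallikrein Klk7, which in human skin trims cathelicidin, at 387 ± 46.9 and 496 ± 91.9 FPKM. Markers of keratinocytes, the cells that make the defensins, had a median log2 fold change of -0.026 over 18 genes, 0 of which passed. At an unadjusted p under 0.05 (limma) there was 1, lower in CKO, against 10.3% of all genes in that direction. That gene was Krt17, at 415 ± 27.7 FPKM in CKO libraries and 491 ± 60.7 FPKM in Flox libraries. Their summed level was 11582 to 15461 FPKM in CKO and 11482 to 16129 FPKM in Flox, so the groups overlapped.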

How the data were processed

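Skin RNA of 10 samples was sequenced as single-end reads of 50 bases, per the labels' protocols. The submitters' processing notes name HISAT as the aligner. Counter, genome build and versions: not given in the sources used here. As deposited, the authors' table holds FPKM per gene, per the file headers, and no read counts were used, so depth is unknown and no counting interval is given. Groups and replicate numbers came from the titles, and the 10 labelled samples were used although the design text states another number. limma 3.58.1 (R 4.3.3) was fitted with a mean trend, robust off, on log2(FPKM + 1) of genes that reached 1 FPKM in 5 or more libraries, two-sided, with Benjamini-Hochberg adjustment over all genes. The fit was tested on simulated data. Exact permutation tests used all 252 assignments; those of correlations permuted libraries within groups. Members and lists were chosen with earlier results of these data known. Named genes were the members, up to 4 genes of lowest p per list and 3 genes most like each member, with markers where their level stands beside a member; other names are marked. The macrophage list had 12 tested genes, a median of 5.4e-04, and 0 passed. At an unadjusted p under 0.05 (limma) there was 1, lower in CKO, against 10.3% of all genes in that direction. Motifs were sought on both strands of the 250 bases before each start. Sequences came from RefSeq (GRCm38.p6) and GENCODE transcripts, compared with Biopython 1.88. Alternatives were a pseudocount of 0.1, no filter, array quality weights, quantile normalization, equal totals, a replicate block, a muscle covariate and leaving out each library.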

Additional observations from a re-analysis of the deposited data

How the results depend on the processing

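No member passed in any of these fits, and at an unadjusted p under 0.05 in limma there were 2 members, Defb3 and Lcn2, as reported. Defb1, lower in CKO, joined them under array quality weights (limma adjusted p = 0.217) and when CKO replicate 1 was left out (limma adjusted p = 0.348). Defb4, higher in CKO, joined them under the muscle covariate (limma adjusted p = 0.434), so each of these settings had 3. Defb3 and Lcn2 kept a positive log2 fold change in all of these fits, with limma adjusted p of 0.118 to 0.298 and 0.140 to 0.420. Over the fits leaving out 1 library, the log2 fold change was -0.13 to 0.12 for Defb14 and -0.089 to 0.13 for Camp. With the muscle score as a covariate Defb14 was at 0.22 and Slpi at 0.14, opposite in sign to the reported values. The 14 genes called over all genes (6 higher, 8 lower) were 3 with no filter (1 and 2), 90 with array quality weights (30 and 60), 8 after rescaling to equal totals (2 and 6), 0 with the replicate block and 0 with the muscle covariate, where 1911 and 1266 genes had an unadjusted p under 0.05 in limma. Without 1 library the count was 0 to 26: 26 without CKO replicate 1, 9, 3, 5 and 5 without CKO replicates 2, 4, 3 and 5, 5 without Flox replicate 4 and 0 without any one of the other Flox libraries (with 1488 to 1818 genes whose limma p before adjustment was under 0.05). The causes were not tested. Same-numbered samples had correlations of -0.21 to 0.21. With 1 pair of samples per number, these values show no pairing by number but cannot exclude it. With the replicate block the count of members passing stayed at 0 and could not have fallen. The Defb3 to Defb14 log2 ratio, whose alternatives were added after the data were seen, was 1.19 with a pseudocount of 0.1. Levels near 1 FPKM, such as Camp, are limited by depth.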

Other observations

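The other genes whose log2 ratio to Defb14 was higher in CKO without overlap, beside Defb3, were the glucocorticoid-induced genes Fkbp5 (difference 1.21) and Tsc22d3 (1.04), the cytokine Csf3 (1.07), the AP-1 factor Fosl1 (0.99), the prostaglandin synthase Ptgs2 (0.83), Fam107a (0.98), Fga (0.77), Sphk1 (0.73), Gprc5a (0.67), Klhl6 (0.60) and the pseudogene Rpl34-ps1 (1.17). These names were chosen after the values were seen.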
